A study of Mus musculus with 12 samples.

Results

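Immediate early and stress-inducible genes were examined in livers of newborn mice lacking either Lkb1 or RbpJk. The set held 10 genes, Fos, Jun, Junb, Atf3, Egr1, Nr4a1, Ier2, Dusp1, Gadd45b and Myc, which were taken by their symbols, a choice made with earlier results of these data known. All 10 were found among the 23185 genes with a named probe set, with 1 probe set each. Every one of them had its highest value of the series on a knockout array and its lowest on a control array, a pattern shared by 26.1% of all genes. Jun passed the test in both knockouts, and Atf3, Gadd45b and Egr1 passed it in RbpJk KO livers.

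Liver RNA of 12 mice killed 5 days after birth was read on 12 Affymetrix whole-transcript arrays, in 4 groups of 3. LKB1 KO mice had lost the kinase gene Lkb1, listed on the arrays as Stk11, from the liver, and RbpJk KO mice had lost RbpJk, listed as Rbpj, the DNA-binding partner of Notch receptors. Both knockout groups were Cre positive, whereas LKB1 WT and RbpJk WT were Cre negative, so an effect of Cre itself and an effect of the lost gene cannot be told apart. For these newborn mice the sources used here do not name the promoter that drove Cre, nor the strain. The deposited values are log2 expression levels, in which a step of 1 is a doubling of signal. The brightness of a probe set depends on its probes, so changes were read between arrays and not between genes. Levels were set against the median of all genes only as a rough guide to dim probe sets.

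Immediate early genes are transcribed within minutes of a growth factor, hormone, injury or stress signal, without the need for new protein, because their regulators (Srf with its partners, Creb1) already sit at their promoters. Fos, Jun, Junb and Atf3 encode bZIP proteins that pair as the AP-1 and ATF dimers, Egr1 a zinc finger factor, Nr4a1 an orphan nuclear receptor and Ier2 a small nuclear protein. Dusp1 encodes a phosphatase that switches MAP kinases off again, Gadd45b a stress protein that binds the kinase Map3k4, and Myc a growth-promoting factor. In the liver many of them are known for their surge at the start of regeneration after partial hepatectomy.

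Promoters of 7 of the 10 genes could be matched by symbol in the RefSeq-based table of mouse promoters (build GRCm38.p6), which gives 250 bases before and 50 bases after the start of the gene. Shown here, 5′ to 3′ on the gene's own strand, are those of the called genes Jun, Atf3 and Gadd45b and that of Nr4a1, which had the second largest change in LKB1 KO livers. Capitals mark the motifs searched on both strands: the CArG box of Srf, TGACGTCA (the site of Creb and ATF dimers) and its 5-base part TGACG, TGANNTCA, which includes TGACGTCA, TGANTCA (the AP-1 site), GCGNGGGCG (the Egr site), CACGTG (the E-box of Myc) and TATAAA.
Jun, chr4:95052173-95052472, minus strand: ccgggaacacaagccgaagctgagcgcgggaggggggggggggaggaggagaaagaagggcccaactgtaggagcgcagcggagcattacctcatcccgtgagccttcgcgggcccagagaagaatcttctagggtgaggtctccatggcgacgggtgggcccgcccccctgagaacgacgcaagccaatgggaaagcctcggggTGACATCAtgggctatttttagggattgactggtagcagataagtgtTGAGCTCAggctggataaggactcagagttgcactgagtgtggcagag
Atf3, chr1:191183284-191183583, minus strand: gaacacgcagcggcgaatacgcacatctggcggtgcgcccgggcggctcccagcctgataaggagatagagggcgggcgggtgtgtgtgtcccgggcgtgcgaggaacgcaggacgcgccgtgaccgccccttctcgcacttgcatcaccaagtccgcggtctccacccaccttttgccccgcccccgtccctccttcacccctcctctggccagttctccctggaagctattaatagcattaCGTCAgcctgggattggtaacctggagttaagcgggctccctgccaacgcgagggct
Gadd45b, chr10:80929841-80930140, plus strand: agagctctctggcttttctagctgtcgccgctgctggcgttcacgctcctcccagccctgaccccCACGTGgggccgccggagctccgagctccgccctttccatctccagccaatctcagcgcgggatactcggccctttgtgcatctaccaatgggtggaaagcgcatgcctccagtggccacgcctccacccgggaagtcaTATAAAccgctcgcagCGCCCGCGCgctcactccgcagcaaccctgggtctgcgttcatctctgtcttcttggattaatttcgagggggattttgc
Nr4a1, chr15:101266596-101266895, plus strand: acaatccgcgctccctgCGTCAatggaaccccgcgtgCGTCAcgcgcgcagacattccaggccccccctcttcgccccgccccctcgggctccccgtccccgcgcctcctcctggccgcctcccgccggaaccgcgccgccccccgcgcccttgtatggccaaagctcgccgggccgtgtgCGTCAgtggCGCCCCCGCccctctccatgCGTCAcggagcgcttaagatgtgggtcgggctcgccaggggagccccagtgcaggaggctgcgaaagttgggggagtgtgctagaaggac

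The window of Jun held TGANNTCA at 2 places, 45 bases before the start and just after it, and 14.1% of the 32851 promoters of the table hold that pattern. Atf3 held a single TGACG and Nr4a1 held 4, with a match in 5 of the 7 windows against 20.8% of all promoters. GCGNGGGCG was found in Gadd45b and Nr4a1 (5.55% of all promoters), CACGTG in Gadd45b and Dusp1 (7.15%), TATAAA in Fos, Junb and Gadd45b (13.6%) and the full TGACGTCA in Dusp1 (1.79%). The CArG box (1.63%) and TGANTCA (7.81%) matched none of the 7 windows. These matches describe letters and no occupancy was measured.

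Some features of the series bear on every comparison. Stk11 fell in LKB1 KO livers, from 7.55 ± 0.03 to 6.75 ± 0.33 (mean ± SD, n = 3; adjusted p = 0.0224), and Rbpj averaged 5.07 ± 0.24 in RbpJk WT livers against 4.34 ± 0.36 after its deletion (adjusted p = 0.0724, without overlap). All mice are labelled male, but Xist, the RNA of the silenced X chromosome, was high on 6 arrays (10.63 to 10.75) and low on the remaining 6 (3.81 to 5.09), and the Y-linked gene Eif2s3y ran opposite to it. Xist was low on all 3 RbpJk KO arrays and on RbpJk WT 2, and high on the other 2 controls of that arm. In the LKB1 arm it was high on the 3 controls and LKB1 KO 3 and low on the other 2 knockouts. RbpJk WT 1 also carried the pancreatic enzyme transcript Ctrb1 at 10.44, where the other 11 arrays reached at most 6.75. Array medians ran from 4.84 to 5.01, and no batch, litter or date is given.

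The first comparison, in the RbpJk arm, set RbpJk KO livers against RbpJk WT livers. Jun, Atf3, Gadd45b and Egr1 rose, and 0 of the 10 genes fell. This is 4 of 10, where 1.12% of all genes rose by the same rule (limma over 23185 genes, Benjamini-Hochberg adjusted p below 0.05). The changes of all 10 were above 0, as were those of 45.1% of all genes, with a median of 0.63 against -0.03 over all genes. In 7 of the 10 the 3 RbpJk KO arrays lay above all 3 controls, compared with 8.25% of all genes. Leaving out any 1 of the 6 arrays other than RbpJk WT 3 reduced the 4 calls to 2. The livers are mixtures of cells, and in such bulk samples fewer cells of a type and less RNA per cell cannot be told apart.

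In the LKB1 arm the same genes were compared between LKB1 KO and LKB1 WT livers. Jun rose and was the only one of the 10 to pass the test, where 0.418% of all genes rose. All 10 changes were again above 0, against 47.4% of all genes, with a median of 0.41 against -0.01 over all genes. With only the high-Xist arrays of this arm, LKB1 KO 3 is the only knockout left. The changes of Junb (-0.20), Egr1 (-0.17), Ier2 (-0.19), Gadd45b (-0.077) and Myc (-0.13) then turned below 0. The 3 LKB1 KO arrays lay above the 3 controls in 5 of the 10 genes (Fos, Jun, Nr4a1, Dusp1 and Atf3), compared with 7.77% of all genes. Jun, Nr4a1 and Atf3 had such separated groups in both arms, as did 1.48% of all genes, and Jun was among the 0.125% of all genes that rose in both knockouts. The 2 arms have separate controls.

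**Figure D1:**
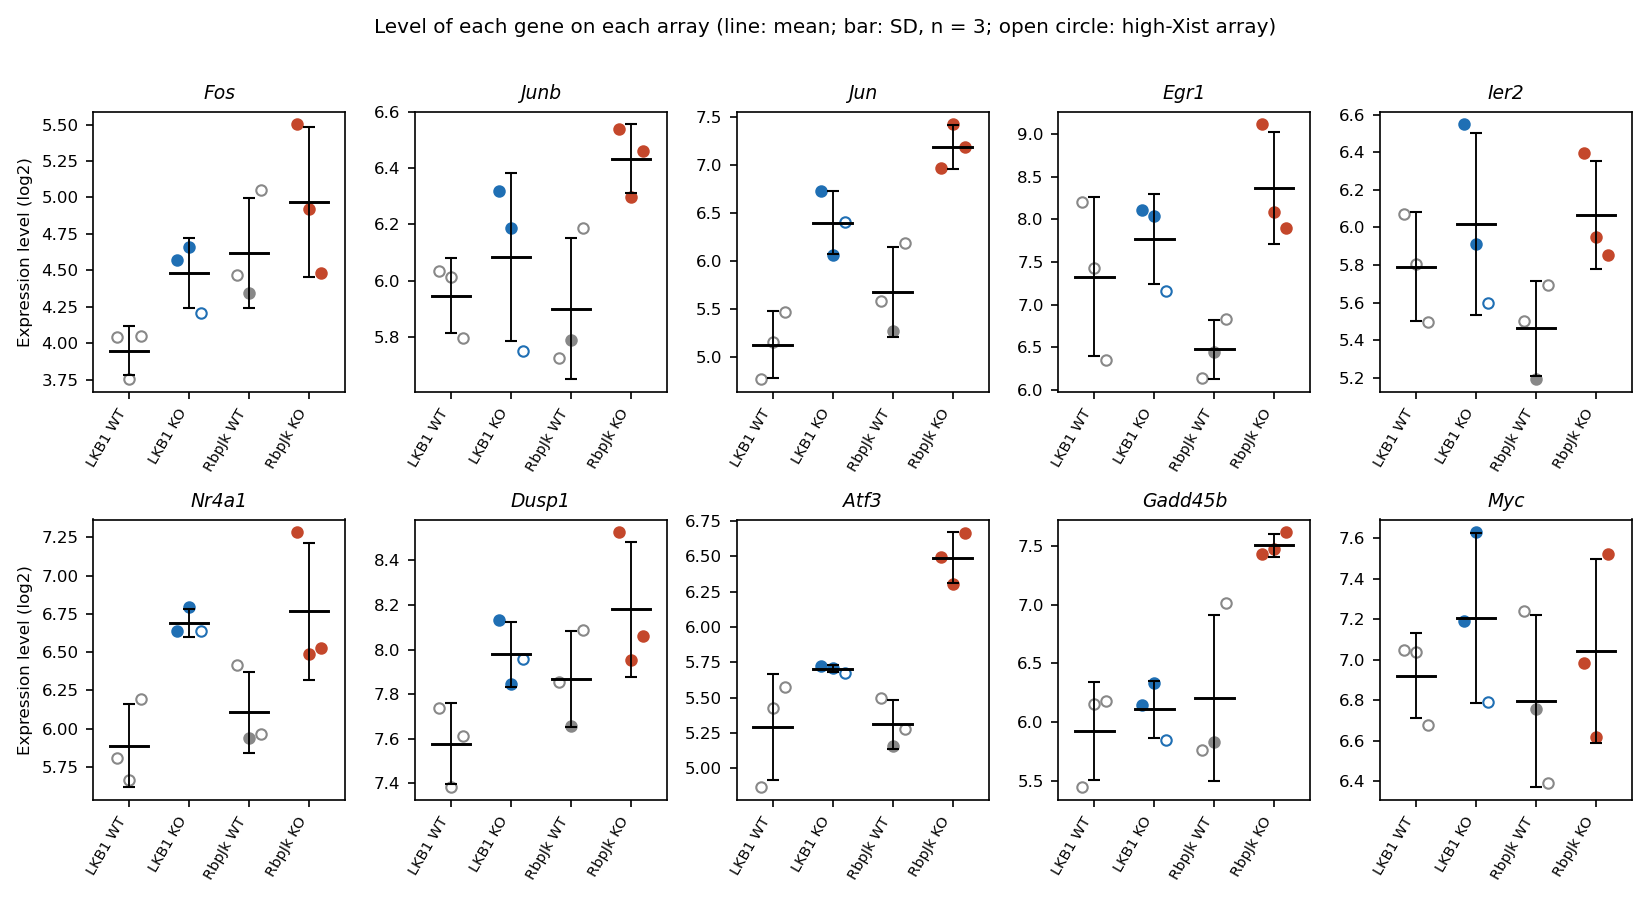
Level of each of the 10 genes (log2, vertical axis) on each of the 12 arrays, in 4 groups of 3, with the mean as a line and the SD as a bar; open circles are arrays with high Xist. For Jun the 6 knockout arrays, from 6.06 to 7.42, lie above the controls of their own arm.

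The AP-1 subunit genes came first. Jun, the main partner of Fos in AP-1, stood at 5.58, 5.27 and 6.18 in RbpJk controls and at 6.96, 7.42 and 7.18 in the knockouts. In LKB1 WT livers it stood at 4.77, 5.15 and 5.47 and in LKB1 KO livers at 6.72, 6.06 and 6.41. The groups did not overlap in either arm. Jun rose 2.85-fold in RbpJk KO livers (log2 change 1.51 ± 0.24 (SE), adjusted p = 0.00475) and 2.41-fold in LKB1 KO livers (1.27 ± 0.24, adjusted p = 0.0225). The difference between these changes was 0.24 on the log2 scale (95% confidence interval -0.49 to 0.97, adjusted p = 0.894).

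LKB1 KO 3, which shares high Xist with all 3 LKB1 WT arrays, had Jun at 6.41, and RbpJk WT 2, which shares low Xist with all 3 RbpJk KO arrays, had it at 5.27. The former lies above the 3 LKB1 WT arrays and the latter below the 3 RbpJk KO arrays, though each is a single array. With Xist class as a covariate the call held in both arms. The effect of that covariate is estimated only within LKB1 KO (1 of 3 arrays high) and RbpJk WT (2 of 3 high), the groups with both classes. The LKB1 KO call was lost without LKB1 KO 1 (adjusted p = 0.0939), LKB1 KO 3 (0.0948), LKB1 WT 1 (0.104) or LKB1 WT 2 (0.0814). It was also lost with only the high-Xist arrays of the arm, where LKB1 KO 3 is the only knockout (change 1.28). The RbpJk KO call held without any 1 of the 6 arrays.

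Atf3, a bZIP factor of the ATF family that is induced by many stresses, was at 5.50, 5.16 and 5.28 in RbpJk controls and at 6.50, 6.30 and 6.67 in the knockouts. LKB1 WT livers had 4.87, 5.43 and 5.58 and LKB1 KO livers had 5.73, 5.71 and 5.68. The groups were separate in both arms, by 0.81 in the RbpJk arm and by 0.10 in the LKB1 arm, and the 3 LKB1 KO arrays were nearly equal. Atf3 rose 2.27-fold in RbpJk KO livers (1.18 ± 0.17, adjusted p = 0.00295), a call that held without any 1 of the 6 arrays and with Xist class as a covariate. Its change after loss of Lkb1 was 0.41 ± 0.17 (adjusted p = 0.528).

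Fos, the partner of the Jun proteins, was dim, at 4.47, 4.34 and 5.05 in RbpJk controls and 5.50, 4.92 and 4.48 in the knockouts. These groups overlapped, and the change was 0.35 ± 0.25 (adjusted p = 0.562). LKB1 WT livers had 4.04, 3.76 and 4.05 and LKB1 KO livers had 4.57, 4.66 and 4.21. There the knockouts lay above the controls, with a change of 0.53 ± 0.25 (adjusted p = 0.621). The mean of Fos over 12 arrays, 4.51, was below the median of all genes, 4.90. Background signal can make differences smaller in a dim probe set, which was not tested for Fos.

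Junb, another early response gene of the Jun family, was at 5.72, 5.79 and 6.19 in RbpJk controls. In the knockouts it was at 6.54, 6.30 and 6.46. The groups were separate by 0.11, and the change of 0.53 ± 0.17 did not pass the test (adjusted p = 0.143). LKB1 WT livers, at 6.03, 6.01 and 5.80, overlapped LKB1 KO livers, at 6.32, 6.19 and 5.75. The change there was 0.14 ± 0.17 (adjusted p = 0.984).

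Egr1, an early zinc finger factor downstream of MAP kinases, had the largest change among the 10 in the RbpJk arm. Its levels were 6.14, 6.45 and 6.84 in the controls and 9.12, 8.09 and 7.90 in the knockouts, without overlap. Egr1 rose 3.71-fold (1.89 ± 0.41, adjusted p = 0.0326). The call was lost without RbpJk KO 1 (adjusted p = 0.111), RbpJk KO 2 (0.0591), RbpJk KO 3 (0.0529), RbpJk WT 1 (0.0787) or RbpJk WT 2 (0.0931), and with Xist class as a covariate (0.213). It was also lost with a robust prior (0.115), with array weights (0.120) and without an intensity trend (0.0535), and was made in 6 of 17 alternatives in all. The 17 include a fit with only the low-Xist arrays of the arm, which leaves RbpJk WT 2 as the only control, with a change of 1.92. Over the 17 alternatives the change of Egr1 ranged from 1.52 to 2.13.

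Among LKB1 WT livers Egr1 was at 8.20, 7.43 and 6.35, an SD of 0.93 that was the largest of its 4 groups. LKB1 KO livers, at 8.11, 8.04 and 7.16, lay within that range. The change was 0.44 ± 0.41, about the size of its error (adjusted p = 0.945).

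Nr4a1, a nuclear receptor without a known hormone that in liver is induced by glucagon and cAMP, was at 5.81, 5.67 and 6.19 in LKB1 WT and at 6.64, 6.79 and 6.64 in LKB1 KO livers. The groups did not overlap. Its change of 0.80 ± 0.21 was the second largest of the 10 in this arm but missed the threshold (adjusted p = 0.116). When limma was fitted to the 6 arrays of the arm alone it passed (adjusted p = 0.0298), as it did with array weights (0.0424), 2 of its 17 alternatives. RbpJk WT livers had 6.41, 5.94 and 5.97 and RbpJk KO livers had 7.28, 6.49 and 6.53, separate by 0.076, with a change of 0.66 ± 0.21 (adjusted p = 0.145).

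Ier2, a nuclear protein of the early response, was at 5.50, 5.19 and 5.69 in RbpJk controls and at 6.39, 5.95 and 5.86 in the knockouts. These groups were separate, with a change of 0.60 ± 0.23 (adjusted p = 0.245). LKB1 WT livers, at 6.07, 5.80 and 5.50, overlapped LKB1 KO livers, at 6.55, 5.91 and 5.60 (change 0.23 ± 0.23, adjusted p = 0.963).

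Dusp1, the MAP kinase phosphatase, was at 7.74, 7.38 and 7.61 in LKB1 WT and at 8.13, 7.85 and 7.96 in LKB1 KO livers. The knockouts lay above the controls by 0.11, with a change of 0.40 ± 0.16 (adjusted p = 0.463). RbpJk WT livers had 7.86, 7.66 and 8.09 and RbpJk KO livers had 8.53, 7.95 and 8.06. These overlapped, with a change of 0.31 ± 0.16 (adjusted p = 0.382).

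Gadd45b, a stress sensor that in liver responds to TNF and NF-kB signaling, was at 5.77, 5.83 and 7.02 in RbpJk controls and at 7.43, 7.47 and 7.62 in the knockouts. RbpJk WT 3 stood between the other controls and the lowest knockout, 0.41 below the latter. Gadd45b rose 2.46-fold (1.30 ± 0.28, adjusted p = 0.0320). The call held without RbpJk WT 3 (change 1.71, adjusted p = 0.00104) but was lost without any of the other 5 arrays of the arm (adjusted p from 0.0704 to 0.123), with Xist class as a covariate (0.132), with the 6 arrays of the arm alone (0.106) and without an intensity trend (0.0508). It was made in 8 of 17 alternatives, with changes of Gadd45b from 1.08 to 1.71. The 8 include the fit with only the low-Xist arrays of the arm, which leaves RbpJk WT 2 as the only control.

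LKB1 WT livers had Gadd45b at 5.45, 6.16 and 6.18 and LKB1 KO livers at 6.15, 6.33 and 5.85. The groups overlapped (change 0.18 ± 0.28, adjusted p = 0.9996).

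Myc, whose protein drives growth and ribosome synthesis, showed no separation in either arm. It was at 7.24, 6.75 and 6.39 in RbpJk controls and at 6.98, 6.62 and 7.52 in the knockouts (change 0.24 ± 0.26, adjusted p = 0.714). LKB1 WT livers had 7.05, 7.04 and 6.68 and LKB1 KO livers had 7.19, 7.63 and 6.79 (0.28 ± 0.26, adjusted p = 0.941).

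**Figure D2:**
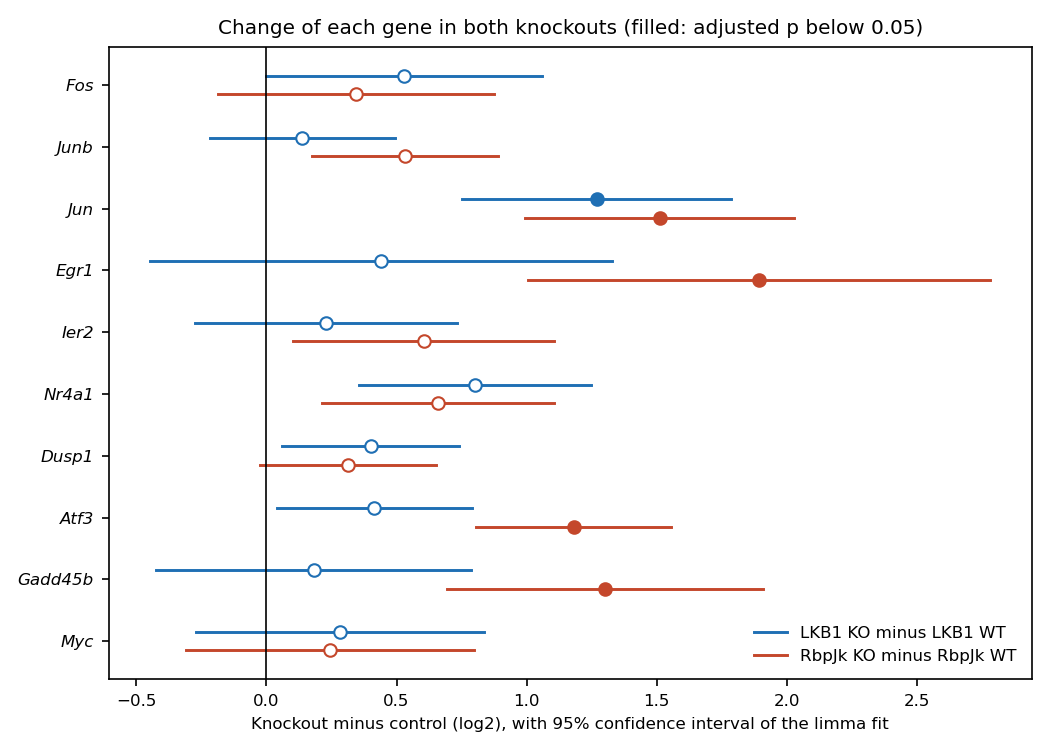
Knockout minus control of each of the 10 genes (log2, horizontal axis) with its 95% confidence interval from the limma fit, in LKB1 KO and RbpJk KO livers; filled circles passed an adjusted p of 0.05. All 20 circles lie above 0, with Jun filled in both colours and Atf3, Gadd45b and Egr1 filled for RbpJk KO.

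The exact permutation test of 3 arrays against 3 cannot give a two-sided p below 0.1. It gave 0.1 for the 5 genes with separate groups in the LKB1 arm and the 7 in the RbpJk arm. For the other genes it gave values from 0.3 to 0.7. It thus ranks the genes and cannot call them.

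Whether the knockouts differed from each other was tested as the difference of the 2 effects. Of all genes 0.181% passed that test, and 0 of the 10 did (limma). At an unadjusted p below 0.05 were 3 of the 10, against 2117 of all 23185 genes. Egr1 changed by 1.45 more in RbpJk KO than in LKB1 KO livers (95% confidence interval 0.20 to 2.71, adjusted p = 0.458), Gadd45b by 1.12 more (0.26 to 1.98, adjusted p = 0.391) and Atf3 by 0.77 more (0.24 to 1.30, adjusted p = 0.328). Without RbpJk WT 3 the difference of Gadd45b, 1.53, passed (adjusted p = 0.0470). Effects in the 2 arms therefore could not be called different with all 12 arrays, and the intervals leave room for sizeable differences.

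The controls of both arms, which carry no deletion, were also set against each other. Of all genes 0.699% passed and 0 of the 10 did (limma). Fos and Jun were at an unadjusted p below 0.05, as were 2887 of all 23185 genes. LKB1 WT minus RbpJk WT was -0.67 ± 0.25 for Fos (adjusted p = 0.284), whose LKB1 WT arrays all lay below the RbpJk WT arrays, and -0.55 ± 0.24 for Jun (adjusted p = 0.373). Across groups Jun was lowest in LKB1 WT (mean 5.13), followed by RbpJk WT (5.68), LKB1 KO (6.40) and RbpJk KO (7.19).

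**Figure D3:**
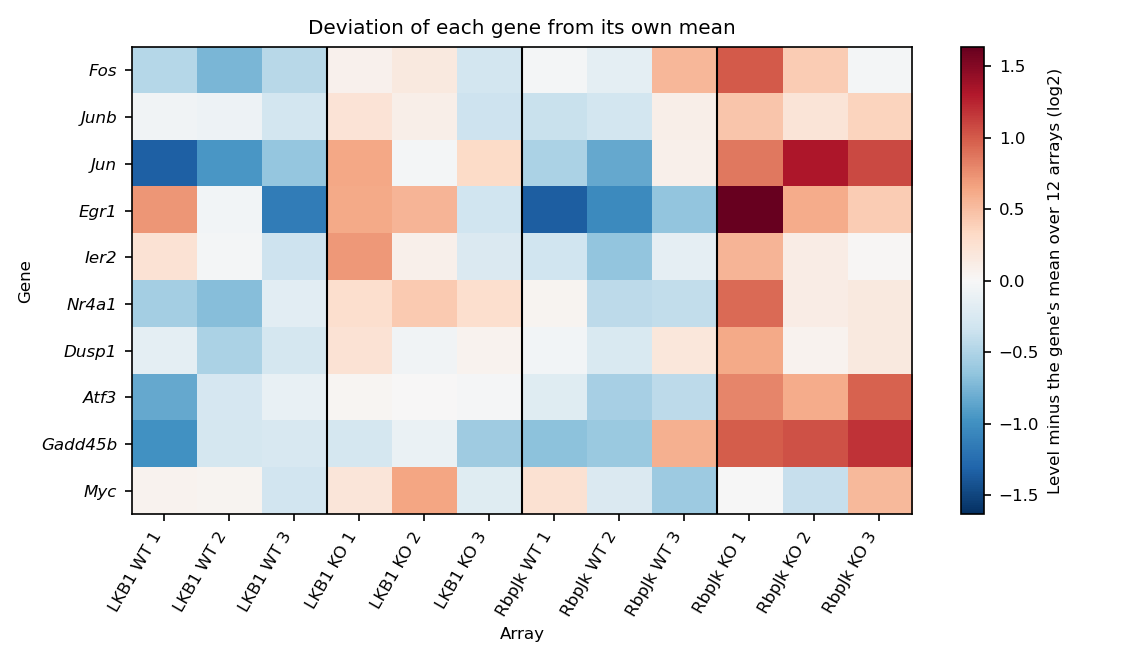
Level of each gene on each array minus the gene's own mean over the 12 arrays (log2, colour scale), with genes as rows and arrays as columns in 4 groups of 3. RbpJk KO 1 holds the highest value of 5 genes, and 8 of 10 maxima fall on RbpJk KO arrays.

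The genes differed in which animal stood highest. Fos, Junb, Egr1, Nr4a1 and Dusp1 peaked on RbpJk KO 1, Jun on RbpJk KO 2, Atf3 and Gadd45b on RbpJk KO 3, Ier2 on LKB1 KO 1 and Myc on LKB1 KO 2. The mean over the 10 genes was 7.12, 6.75 and 6.83 on RbpJk KO arrays and 6.02, 5.84 and 6.27 on their controls. Among these controls the lowest, RbpJk WT 2, was the low-Xist array. LKB1 KO arrays had 6.61, 6.52 and 6.20, of which the lowest was the high-Xist array, and LKB1 WT arrays had 6.00, 5.98 and 5.94.

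Over the 12 arrays 43 of the 45 pairs of genes had a positive correlation. Of these pairs, 19 passed after adjustment over the 45 pairs (Pearson's r, 100000-resample permutation test). Levels over the 12 arrays include the difference between knockouts and controls. Genes that are all higher in the knockouts can therefore pass through that shared difference alone. The share of all gene pairs that would pass was not computed, so these counts cannot be called particular to this set. Jun and Atf3 were most alike (r = 0.88, permutation p = 1e-04, adjusted p = 0.00450; Spearman's rho 0.87, permutation p = 0.000360, adjusted p = 0.00810), followed by Fos with Dusp1 (r = 0.87, permutation p = 0.000320, adjusted p = 0.00480; rho 0.78, permutation p = 0.00435, adjusted p = 0.0326) and Egr1 with Ier2 (r = 0.87, permutation p = 0.000240, adjusted p = 0.00480; rho 0.94, permutation p = 2e-05, adjusted p = 0.000900). Without the 2 arrays farthest from the median of the first gene, r was 0.82, 0.64 and 0.83. None of the 9 pairs with Myc passed, their r running from -0.11 to 0.34. Leaving out RbpJk KO 1 alone reduced the 19 pairs to 5.

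Within the 6 arrays of an arm 0 pairs passed after adjustment, with 7 in the LKB1 arm and 18 in the RbpJk arm at an unadjusted p below 0.05 (exact permutation test). Jun and Atf3 correlated at 0.84 in the LKB1 arm (exact permutation p = 0.00417, adjusted p = 0.188) and at 0.90 in the RbpJk arm (exact permutation p = 0.0528, adjusted p = 0.119). These correlations hold the difference between knockouts and controls. Taken about the group means, 31 of 45 were above 0, with a median of 0.18 against 0.56 for the levels. Among these deviations Egr1 with Ier2 had 0.79, Junb with Ier2 0.78 and Fos with Dusp1 0.75, whereas Jun with Atf3 had 0.37 and Egr1 with Atf3 -0.60. These values describe 12 arrays and carry no test.

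**Figure D4:**
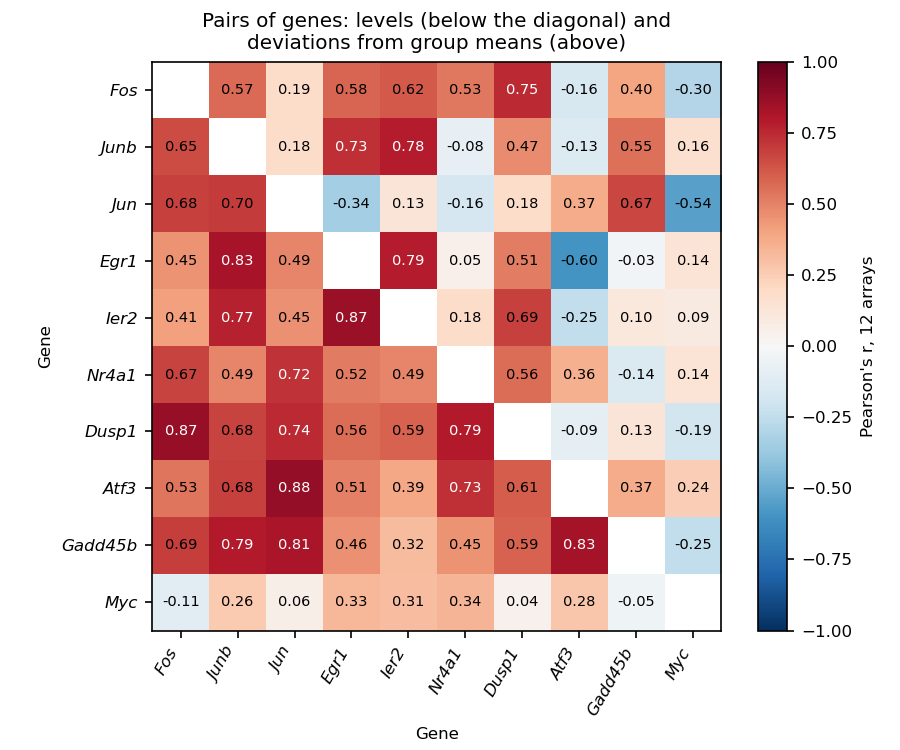
Pearson's r for each pair of genes over the 12 arrays, from the levels below the diagonal and from the deviations about group means above it. Fos, Junb, Egr1, Ier2 and Dusp1 keep positive values above the diagonal, from 0.47 to 0.79, while the row of Myc below it stays between -0.11 and 0.34.

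Outside the gene lists, the 5 genes whose levels ran closest to the mean of the 10 over the 12 arrays were Zyx, a focal adhesion protein (r = 0.95), Rhbdf2, a partner of the protease that sheds TNF (0.93), Srebf2, the factor of cholesterol synthesis (0.93), the interleukin-1 receptor gene Il1r1 (0.93) and Dennd4c (0.92). These are the top of a search over all genes and carry no test of likeness. The mean of the 10 was itself higher on all knockout arrays than on the controls of their arm. Genes picked for likeness to it thus tend to be higher in the knockouts. Their changes and adjusted p-values describe the pick and are no separate evidence. In RbpJk KO livers Srebf2 rose by 0.61 ± 0.10 (adjusted p = 0.00778), Rhbdf2 by 0.63 ± 0.13 (0.0223) and Il1r1 by 0.53 ± 0.10 (0.0172). After loss of Lkb1 the 5 changes ran from 0.17 to 0.32, with adjusted p from 0.271 to 0.805.

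Genes that share the induction or the pathway were then read in 11 lists. The largest held 30 other rapidly induced genes, of which 5 rose and 0 fell in RbpJk KO livers and 2 rose and 0 fell in LKB1 KO livers. Over all genes 1.12% rose in the former and 0.418% in the latter, which is the background for the counts of every list. At an unadjusted p below 0.05 were 3360 of all 23185 genes in the RbpJk arm and 1866 in the LKB1 arm (limma). Zfp36, which ends the life of AU-rich cytokine mRNAs, was at 9.28, 9.31 and 9.67 in RbpJk controls and 10.59, 10.35 and 10.40 in the knockouts, and rose by 1.03 ± 0.11 (adjusted p = 0.000345). The matricellular gene Ccn1 rose by 0.98 ± 0.19 (0.0165) and the acute-phase regulator Cebpd by 0.76 ± 0.16 (0.0224), beside Socs3 and Id2. With Xist class as a covariate 1 of the 30 rose, as did 128 of all genes. Without RbpJk WT 1 there were 3, and 241 of all genes. The 2 genes that rose in LKB1 KO livers were the kinase gene Sgk1 (0.68 ± 0.14, adjusted p = 0.0371) and Tnfaip3, an inhibitor of NF-kB (0.79 ± 0.17, adjusted p = 0.0437), and 0 passed with Xist class as a covariate. The list's median change was 0.40 in the RbpJk arm and 0.14 in the LKB1 arm.

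Of 11 other AP-1 and small Maf factors, Jdp2, a bZIP repressor that pairs with Jun, rose by 0.88 ± 0.15 in RbpJk KO livers (adjusted p = 0.00884) and 0 fell. Loss of Lkb1 gave 0 calls and 1 gene at an unadjusted p below 0.05, Jund (0.44 ± 0.15, adjusted p = 0.316). Of 11 other Egr, Nr4a and Klf factors, Klf6 (0.66 ± 0.13, adjusted p = 0.0211) and Klf10 (0.84 ± 0.20, adjusted p = 0.0469) rose in RbpJk KO livers, 2 of 11 where 1.12% of all genes rose. In the LKB1 arm 0 of them passed and 1 was at an unadjusted p below 0.05, Klf10 at 0.42 ± 0.20 (adjusted p = 0.615). Of 12 feedback inhibitors of the Dusp, Spry and Spred families, Dusp10, a phosphatase of Jnk and p38, rose in RbpJk KO livers (0.77 ± 0.17, adjusted p = 0.0388). In LKB1 KO livers 0 of this list passed (3 at an unadjusted p below 0.05), with Dusp8 at 0.56 ± 0.15 (adjusted p = 0.123).

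Among 11 genes known to respond to AP-1, Timp1, an inhibitor of matrix metalloproteinases, rose in both knockouts. It was at 3.44, 3.91 and 3.17 in RbpJk controls and at 6.67, 6.07 and 6.37 in the knockouts, a rise of 7.27-fold (2.86 ± 0.24, adjusted p = 6.59e-05). LKB1 WT livers had 3.36, 3.68 and 3.83 and LKB1 KO livers had 5.27, 4.75 and 5.62, a rise of 3.02-fold (1.60 ± 0.24, adjusted p = 0.00417). Both pairs of groups were far apart. The controls lay below the median of all genes, 4.90, and the files give no detection calls, so these folds start from levels not shown to be above background and may understate the difference. Hbegf, an EGF receptor ligand, also rose in RbpJk KO livers (0.82 ± 0.16, adjusted p = 0.0181), and the metallothionein gene Mt2 fell in LKB1 KO livers (-0.35 ± 0.07, adjusted p = 0.0300). The other 8 genes of the list passed in neither arm, and the list medians, 0.15 and 0.01, were small.

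Lists of other stress responses held few calls. Of 11 heat shock chaperones 0 passed in either arm (2 in each at an unadjusted p below 0.05), with Hspa1b at 0.76 ± 0.22 in the RbpJk arm (adjusted p = 0.112) and Bag3 at 0.37 ± 0.13 in the LKB1 arm (adjusted p = 0.329). Of 12 Atf4 and Chop response genes only Herpud1, of the degradation machinery of the endoplasmic reticulum, rose in RbpJk KO livers (0.83 ± 0.16, adjusted p = 0.0173). Loss of Lkb1 gave 0 calls in it and 1 gene at an unadjusted p below 0.05, Vldlr (0.61 ± 0.21, adjusted p = 0.322). Of 9 measured genes of the Gadd45 and p53 responses 0 passed (limma, 3 in the RbpJk arm and 2 in the LKB1 arm at an unadjusted p below 0.05), the cell cycle inhibitor gene Cdkn1a being nearest in both arms at 0.93 ± 0.24 (adjusted p = 0.0710) in RbpJk KO and 0.86 ± 0.24 (adjusted p = 0.144) in LKB1 KO livers. With Xist class as a covariate Cdkn1a passed in both arms, at 1.31 (adjusted p = 0.0217) and 1.25 (adjusted p = 0.0383), and 0 others of that list did.

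Partners and targets of Myc did not pass either. Of 10 partners and antagonists 0 were called (Mnt 0.44 ± 0.17, adjusted p = 0.240, in the RbpJk arm and Mxd3 0.28 ± 0.18, adjusted p = 0.836, in the LKB1 arm), and of 13 growth genes known to respond to Myc 0 were called (Nop56 -0.32 ± 0.12, adjusted p = 0.240, and Cdk4 0.20 ± 0.12, adjusted p = 0.785). Transcripts of 15 measured kinases and factors that act upstream, Srf, Creb1 and the MAP kinases among them, gave 0 calls, with Mrtfa at 0.36 ± 0.13 (adjusted p = 0.202) in the RbpJk arm and Mrtfb at 0.33 ± 0.10 (adjusted p = 0.178) in the LKB1 arm. At an unadjusted p below 0.05 there were 1, 2 and 4 genes of these 3 lists in the RbpJk arm and 0, 0 and 1 in the LKB1 arm. Kinases act through phosphorylation, which arrays do not read.

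Timp1 in both knockouts and Zfp36 in RbpJk KO livers kept their calls under 15 of 16 alternatives (Timp1, in each arm) and 16 of 17 (Zfp36). The other named genes of the lists were less firm. With Xist class as a covariate 0 of the other 8 genes given with values that rose in RbpJk KO livers passed, nor did Sgk1, Tnfaip3 and Mt2 in LKB1 KO livers. Their changes stayed near those above, for example 0.91 for Ccn1, 0.93 for Hbegf, 0.69 for Klf6 and 0.68 for Sgk1. Each of these 3 also lost its call without any 1 of at least 5 of the 6 arrays of the arm, while in the RbpJk arm Jdp2 kept its call without any 1 array, and Ccn1, Cebpd, Klf6, Klf10, Dusp10, Herpud1 and Hbegf lost theirs without 1 or more of the knockouts.

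**Figure D5:**
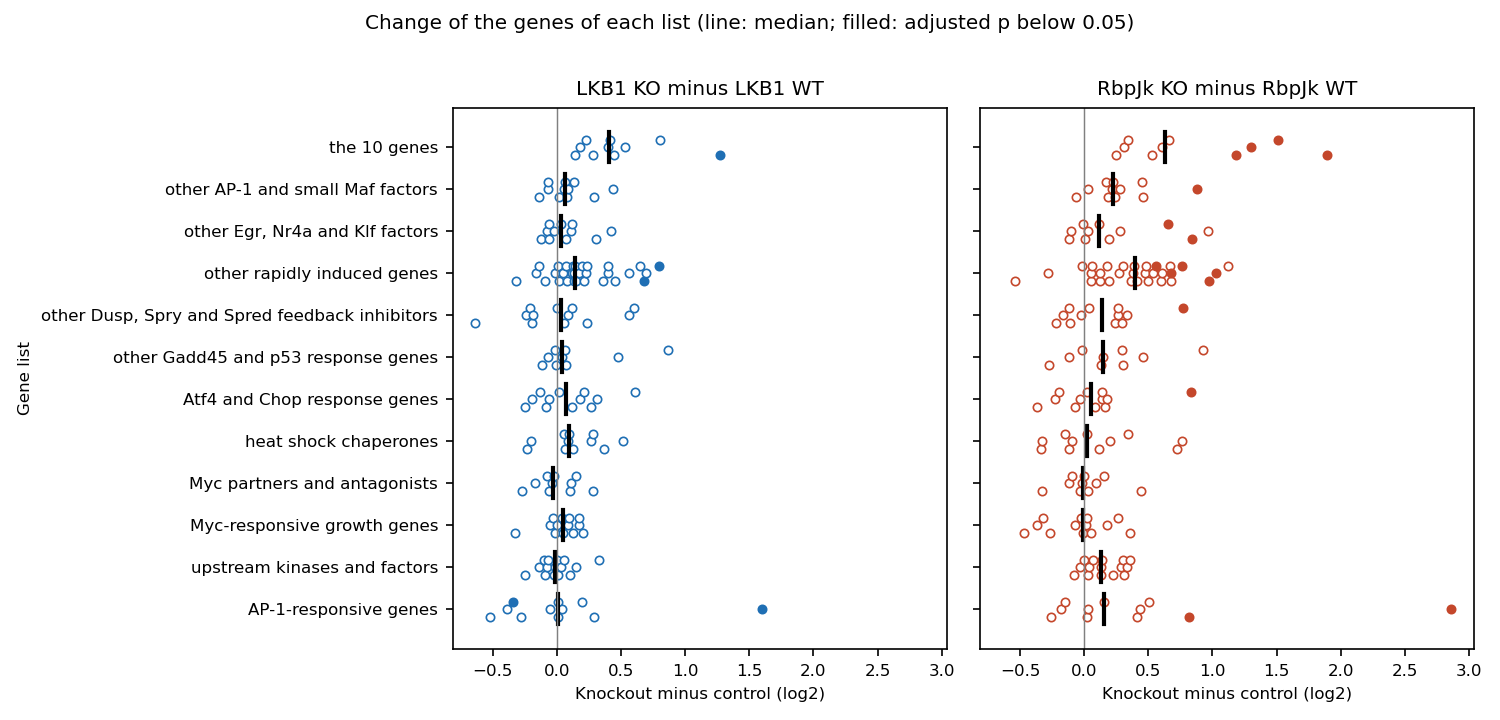
Knockout minus control (log2, horizontal axis) of each gene in the 10-gene set and in 11 related lists, in the LKB1 arm and the RbpJk arm; filled circles passed an adjusted p of 0.05 and the black line is the list's median. The 10 genes have medians of 0.41 and 0.63, and Timp1 is the filled circle farthest to the right in both panels.

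Cell type markers were read beside these results, as the summed signal of each list on each array. In the RbpJk arm the sums of all 9 marker lists overlapped between knockouts and controls. Neutrophil markers, for example, ran from 13.30 to 13.69 after loss of RbpJk and from 13.28 to 13.49 in its controls, and pancreatic acinar markers from 7.21 to 7.94 and from 7.37 to 11.22, the latter through RbpJk WT 1. The overlap of the sums leaves room for shifts of single genes. In the main fit of this arm 3360 of all 23185 genes were at an unadjusted p below 0.05. Of 5 measured B cell markers 0 were higher in RbpJk KO livers (median change -0.62, 3 at an unadjusted p below 0.05, and 5 with Xist class as a covariate), as were 0 of 5 erythroid markers (median -0.30, 2 at an unadjusted p below 0.05) and 9 of 10 endothelial markers (median 0.21, 1 at an unadjusted p below 0.05). Single markers passed there, the macrophage gene Cd5l rising and Adgre1, the erythroid factor Klf1 and the early B cell gene Igll1 falling. For LKB1 KO livers 3 lists lay lower in all knockouts than in any control. Endothelial markers (10 of 10 measured) summed to between 11.19 and 11.36 in LKB1 KO and between 11.50 and 11.61 in LKB1 WT livers, Kupffer cell and macrophage markers (10 of 10) to between 11.13 and 11.22 and between 11.44 and 11.58, and hepatocyte markers (4 of 6) to between 14.49 and 14.52 and between 14.56 and 14.59. The median changes of these 3 lists were -0.34, -0.40 and -0.069, smallest for the hepatocyte markers. For groups that lie lower in this way the share over all genes was not computed. No gene of these 3 lists passed in that arm (7, 6 and 0 at an unadjusted p below 0.05, limma, against 1866 of all 23185 genes). Of 8 stellate cell and fibroblast markers 1 fell in LKB1 KO livers, where 126 of all 23185 genes fell. With Xist class as a covariate 0 of the 8 passed. The part of these cell types in the changes of the 10 genes was not tested. The hepatocyte gene Ttr was at 12.73 or more on every array.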

How the data were processed

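Total RNA was extracted with Trizol and labelled as biotinylated cDNA for Affymetrix whole-transcript arrays, per the labels. Mouse Gene 2.0 ST arrays, Expression Console and BRB-ArrayTools appear in the study's methods, without a word on which of its arrays they cover, and Partek appears in the submitters' processing notes. The authors deposited log2 expression levels, with 1 value per probe set and array. The sources used here do not state the background correction, summarisation or normalization. These bear on dim probe sets, whose differences background can make smaller.

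Of 25206 probe sets, 23185 name 1 gene, 0 several and 2021 none, all 23185 matching RefSeq (GRCm38.p6) by Entrez number. No value was filtered or changed. The 12 arrays were grouped by the labels and held 0 identical pairs. Replicate numbers follow the order of entry, so arrays were not paired. The limma p-values set a difference of group means against the spread between arrays within the 4 groups. The number of arrays limits the precision.

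Group means were fitted over all 12 arrays with limma 3.58.1 in R 4.3.3 (lmFit, contrasts.fit, eBayes with an intensity trend, 8 residual and 5.88 prior degrees of freedom), with Benjamini-Hochberg adjustment over 23185 genes, and an adjusted p below 0.05 was a call. Adjusted p-values of genes come from this limma fit unless an alternative is named. Exact and 100000-resample permutation tests were two-sided. The fits were tested on simulated data.

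The 10 genes, the gene lists (220 of 236 genes measured, some in more than 1 list) and the tests were chosen with earlier results of these data known. Genes were named by rule: the 10 genes, the targeted genes, in each list up to 3 called genes of smallest p per knockout or else the gene of smallest p, the marker with the highest mean of each list, Xist, Eif2s3y, Ctrb1 and the 5 genes most like the mean of the 10. Marker genes that passed in the RbpJk arm and other list genes that passed a test are also named. Of the marker genes with the highest mean, only Ttr is given with its values. Marker lists covered hepatocytes, endothelium, Kupffer cells and macrophages, neutrophils, erythroid cells, B cells, stellate cells and fibroblasts, cholangiocytes and pancreatic acinar cells.

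Alternatives were the arm's 6 arrays alone, other variance models, array weights, quantile normalization, median centring, bright genes only, all probe sets, a t-test (which the methods name for other data), Xist class (a level above 8 or not) as a covariate and leaving out each array. Fits to arrays of 1 Xist class in an arm kept all 6 arrays of the other arm, of either class. These fits, scalings for the counts of separated groups, and the alternatives for genes outside the 10 were added after the data were seen.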

Additional observations from a re-analysis of the deposited data

How the results depend on the processing

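In the LKB1 arm 223 genes and 1 of the 10 passed. No intensity trend gave 131 genes, array weights 512 genes and 2 of the 10, Xist class as a covariate 132 genes, the arm's 6 arrays alone 2 of the 10, arrays of high Xist alone 59 genes and 0 of the 10, and leaving out 1 array 106 (without LKB1 KO 3) to 183 genes and 0 to 1 of the 10. In the RbpJk arm 390 genes (259 higher, 131 lower) and 4 of the 10 passed. Without an intensity trend 301 genes and 2 of the 10 passed, and with array weights 259 genes and 3 of the 10. Median centring gave 590 genes (466 higher, 124 lower) and 4 of the 10. Xist class as a covariate gave 187 genes and 2 of the 10, and the arm's 6 arrays alone 157 genes and 3 of the 10. Leaving out 1 array gave 194 (without RbpJk KO 3) to 465 genes and 2 to 4 of the 10. The t-test gave 0 genes and 0 of the 10 in both arms after adjustment. At an unadjusted p below 0.05 it gave 2253 of all genes and 4 of the 10 in the LKB1 arm. In the RbpJk arm it gave 2071 of all genes and 5 of the 10 at that threshold. For the difference of the effects, leaving out 1 array gave 0 to 1 of the 10. Of 45 pairs, 19 passed by Pearson's r, 12 by Spearman's rho, and 5 to 17 without 1 array (5 without RbpJk KO 1).

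All changes of the 10 genes in the RbpJk arm stayed above 0 under every alternative run. In the LKB1 arm 5 uncalled changes turned negative with only the high-Xist arrays of that arm. LKB1 KO 3 is then the only knockout and is assumed to vary like the other groups. These were Junb -0.20, Egr1 -0.17, Ier2 -0.19, Gadd45b -0.077 and Myc -0.13, and Klf10 (-0.043) of the other lists also turned negative. Leaving out 1 array moved Ier2 between -0.036 and 0.44, Gadd45b between -0.059 and 0.31 and Egr1 between -0.049 and 0.88. The causes were not tested. No paired analysis was possible because the replicate numbers only follow the order of entries. With 3 arrays per group and no detection calls, dim genes such as Fos are measured least well.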
